A study of Mus musculus with 3 samples.

Results

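The type I interferon response was described here through 37 genes, out of 24346 gene symbols measured. They were chosen by symbol from a list of known interferon-stimulated genes and not by their values, with earlier results of these data known. All 37 were found in the tables. RNA was sequenced from 3 myeloid populations sorted from the colon of healthy, untreated BALB/c mice: Gr-1+ CD11b+ cells (labelled as neutrophils and monocytes), CD64- dendritic cells (DC) and CD64+ macrophages. CD64 is a receptor for IgG and the product of Fcgr1, CD11b is an integrin chain of myeloid cells, and the Gr-1 antibody binds Ly6 surface proteins. The series title concerns the ATP-hydrolysing ectoenzyme E-NTPD8 and metabolism that depends on the receptor P2X4 in colonic myeloid cells. Each population has 1 library, so differences cannot be set against a spread between replicates, and nothing was tested. The age and number of the mice, and any pooling of their RNA, are not stated in the sources used here.

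Type I interferons, the interferon-alpha and interferon-beta proteins, act on a receptor made of the Ifnar1 and Ifnar2 chains. The receptor-bound kinases Jak1 and Tyk2 phosphorylate STAT proteins such as Stat2, which joins Irf9 in a complex called ISGF3. This complex binds interferon-stimulated response elements, in which GAAA repeats recur, and turns on a large set of antiviral genes. Some of those genes, such as Irf7 and the RNA sensors, amplify interferon production, while others, such as Usp18, dampen the receptor. In the gut, commensal microbes are known to maintain a low interferon tone in mononuclear phagocytes.

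Values are FPKM, in which fragments are divided by transcript length and by the library total. From the steps between low FPKM values, the DC library was about 3.58 times and the macrophage library 2.70 times as deep as the Gr-1+ CD11b+ library, in which 1 fragment on 1 kb of transcript was worth 0.399 FPKM. Sensory receptor genes that myeloid cells have no use for gave a measure of background. Their 95th percentile, over 1445 olfactory and vomeronasal genes, was 9.67 FPKM in the Gr-1+ CD11b+ sort, 0.610 in DC and 3.23 in macrophages. Below, each of these 3 values is the silent-gene level of its library, and nothing under it is read as expression. All 5 neutrophil markers, all 5 macrophage markers and 4 of 5 DC markers had their highest value in the sort labelled with these cells. The macrophage markers include Fcgr1, whose product was used in the sort. None of the 3 monocyte markers was highest in the Gr-1+ CD11b+ sort, labelled as holding monocytes, as Ly6c2 was highest in DC and Ccr2 and Chil3 in macrophages. The 5 DC markers summed to 41.6 FPKM in the Gr-1+ CD11b+ sort, 1065 in DC and 124 in macrophages, most of it Ccr7. Flt3 (39.9 FPKM) and Zbtb46 (16.02) were present in DC, while Xcr1 and Clec9a, markers of 1 DC subset, were at 2.83 and 2.81 FPKM there, and Xcr1 was highest in the Gr-1+ CD11b+ sort at 4.18, below its silent-gene level. The 3 monocyte markers summed to 544, 934 and 1595 FPKM. The 5 neutrophil markers summed to 164019 FPKM in the Gr-1+ CD11b+ sort, 1621 in DC and 4184 in macrophages, and the 5 macrophage markers to 474, 507 and 5590.0 FPKM in the same libraries. Markers of other cell types were also read. The 4 B and plasma cell markers, none listed at 0, summed to 399.8 FPKM in the Gr-1+ CD11b+ sort, 20956 in DC and 1069 in macrophages. The 5 plasmacytoid DC markers summed to 48.4, 97.8 and 33.1 FPKM, and the 3 epithelial markers to 474, 227 and 139 FPKM, in the order Gr-1+ CD11b+ cells, DC and macrophages. The 3 T and NK cell markers summed to 9.20, 25.4 and 8.10 FPKM in that order. In the same order, 2, 4 and 4 B and plasma cell markers and 1, 5 and 3 plasmacytoid DC markers exceeded the silent-gene level. So did 3, 3 and 3 epithelial markers and 0, 3 and 1 T and NK cell markers. Marker values under that level are not read as expression. The part of these cells in the values below was not tested. In such sorted bulk samples, fewer cells of a type and less RNA per cell cannot be told apart.

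Most of the 37 members exceeded background in all 3 libraries, and DC had the lowest level of most of them. DC had the lowest FPKM for 27 of 37 members, Gr-1+ CD11b+ cells for 8 and macrophages for 2. Macrophages had the highest FPKM for 21 members, Gr-1+ CD11b+ cells for 14 and DC for 2. The count lowest in DC was 23 with each library scaled to an equal FPKM sum and 31 with median-ratio scaling, which uses the median of gene-wise ratios. The leading library changed with the scaling: with median ratios Gr-1+ CD11b+ cells led for 23 members and macrophages for 13. Among all 7087 genes that reached 10 FPKM in some library, the lowest value lay in the Gr-1+ CD11b+ sort for 65.5%, in DC for 21.6% and in macrophages for 12.9%, and the highest for 19.9%, 49.99% and 30.1% in that order. This subset leaves out 6 members. Over all 17329 genes compared, the lowest value lay in the Gr-1+ CD11b+ sort for 41.0%, in DC for 40.4% and in macrophages for 18.6%, and the highest for 43.7%, 36.9% and 19.4%. The members spanned 0.179 to 2912 FPKM in the Gr-1+ CD11b+ sort (median 23.4), 0.940 to 1592 in DC (median 13.4) and 1.57 to 4516 in macrophages (median 25.8). All 37 exceeded the silent-gene level in DC, 35 did in macrophages and 29 in the Gr-1+ CD11b+ sort. The 27 lowest in DC include Ifih1, Ifit2, Eif2ak2, Cmpk2, Herc6 and Ifi44, whose Gr-1+ CD11b+ values lay below that level. Their order between DC and the Gr-1+ CD11b+ sort is therefore not read as expression. The same holds for Ifi44 as a gene highest in the Gr-1+ CD11b+ sort.

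**Figure D1:**
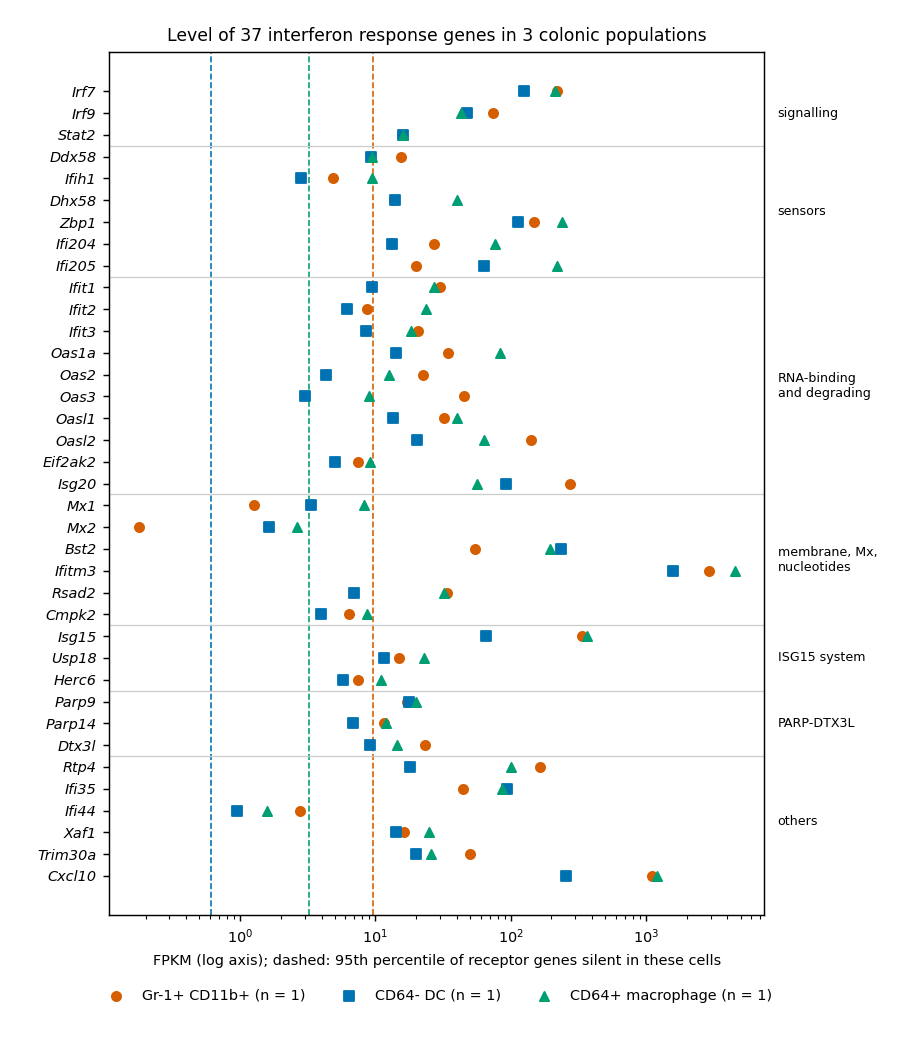
FPKM (log axis) of each of the 37 members in the Gr-1+ CD11b+, DC and macrophage libraries, 1 library each, grouped by role; dashed lines mark the silent-gene level of each library. DC squares are leftmost for 27 members, and 8 members of the Gr-1+ CD11b+ library lie left of its line at 9.67 FPKM.

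Ranks within a library do not depend on scaling, but their comparison between libraries depends on the values of the other genes in each. Among the 17329 genes that reached 1 FPKM in some library, the median member stood at percentile 85.8 in the Gr-1+ CD11b+ sort, 70.4 in DC and 81.5 in macrophages. The lower quartile of the members was at percentile 79.3 in the Gr-1+ CD11b+ sort, 56.9 in DC and 70.9 in macrophages. The upper quartiles were closer together, at 92.4, 87.8 and 92.1. Ifitm3 and Cxcl10 ranked near the top everywhere, with Ifitm3 at percentile 99.8 in the Gr-1+ CD11b+ sort, 99.8 in DC and 99.9 in macrophages. Mx1 and Mx2 went the other way, at percentiles 14.6 and 1.91 in the Gr-1+ CD11b+ sort. Stat2, at 15.8, 15.9 and 16.1 FPKM in the Gr-1+ CD11b+ sort, DC and macrophages, stood at percentiles 81.2, 73.3 and 75.4. Equal FPKM thus did not give equal ranks, and the part of this in the medians was not tested.

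**Figure D2:**
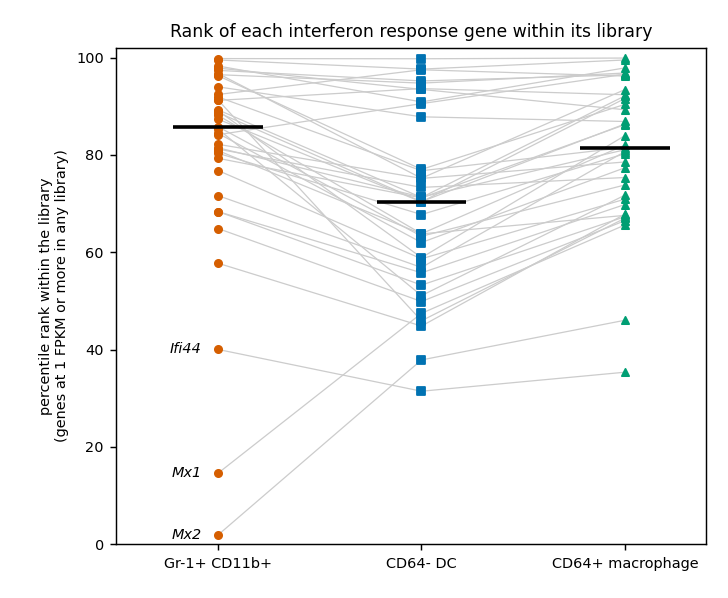
Percentile rank of each member within its library, 1 point per gene, grey lines joining a gene across the Gr-1+ CD11b+, DC and macrophage libraries and black bars marking the medians. The medians are 85.8, 70.4 and 81.5 from left to right, and Mx1, Mx2 and Ifi44 lie far below the rest in the Gr-1+ CD11b+ sort.

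Without replicates, genes were called by a rule of size: a difference of 2 or more in log2(FPKM + 1), about 4-fold, and at least 10 FPKM in the library with the higher value. The added 1 makes these differences smaller than the true ones for low genes. Of the 37 members, 31 reached 10 FPKM in some library. Eif2ak2, Ifih1, Cmpk2, Mx1, Mx2 and Ifi44 did not and could not be called. In all, 12 members passed the rule in at least 1 comparison and 25 in none. The share of all genes passing in any comparison was not counted, so 12 is no result about the members as a group. The comparisons share libraries, so they are not independent of each other.

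Gr-1+ CD11b+ cells and DC were compared first, to set the granulocyte and monocyte sort against the CD64- one. In Gr-1+ CD11b+ cells 7 of 37 members were higher by the size rule (3.65% of all 17329 genes compared passed in this direction) and 1 was lower (6.28% of all genes). The 7 were Oas3, Rtp4, Oasl2, Isg15, Rsad2, Oas2 and Cxcl10, and the 1 was Bst2, a single gene that is no result about the members as a group. The median member difference was 0.67 on the log2 scale. The median over all genes compared was 0.01, and it was -0.89 over the more abundant genes, those reaching 10 FPKM in some library. With equal sums 3 members were higher (2.84% of all genes) and 1 lower (10.5%), Cxcl10, Isg15, Oas2 and Rsad2 no longer passing. With median ratios 10 were higher (6.50%), with Ifit1, Isg20 and Trim30a added, and 0 were lower (2.04%).

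DC and macrophages were compared to set both antigen-presenting sorts against each other. In DC 0 of 37 members were higher by the size rule (1.53% of all genes) and 6 were lower (2.31% of all genes). The 6 were Oas1a, Isg15, Rtp4, Ifi204, Cxcl10 and Rsad2. The median member difference was -1.04 and that of all genes -0.05, and 33 of 37 members had the lower value in DC. With equal sums, Cxcl10 and Rsad2 no longer passed and 4 members were lower (1.52% of all genes). The B and plasma cell markers differed in the opposite direction, with 4 of 4 higher in DC by the rule, and their part in these differences was not tested.

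Gr-1+ CD11b+ cells and macrophages had the smallest median difference for these genes, as deposited and under both scalings. In Gr-1+ CD11b+ cells 2 members, Isg20 and Oas3, were higher by the size rule (1.41% of all genes) and 1, Ifi205, was lower (3.41% of all genes). Counts of this size are near those of all genes and are no result about the members as a group. The median member difference was -0.22, against 0.10 over all genes compared and -0.75 over those reaching 10 FPKM. It was 0.33 with median ratios, so the direction of this median turned with the scaling. Irf7, Stat2, Isg15, Rsad2, Ifit1, Ifit3, Cxcl10 and Parp14 all differed by less than 0.2 on the log2 scale between these libraries, in values as deposited.

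**Figure D3:**
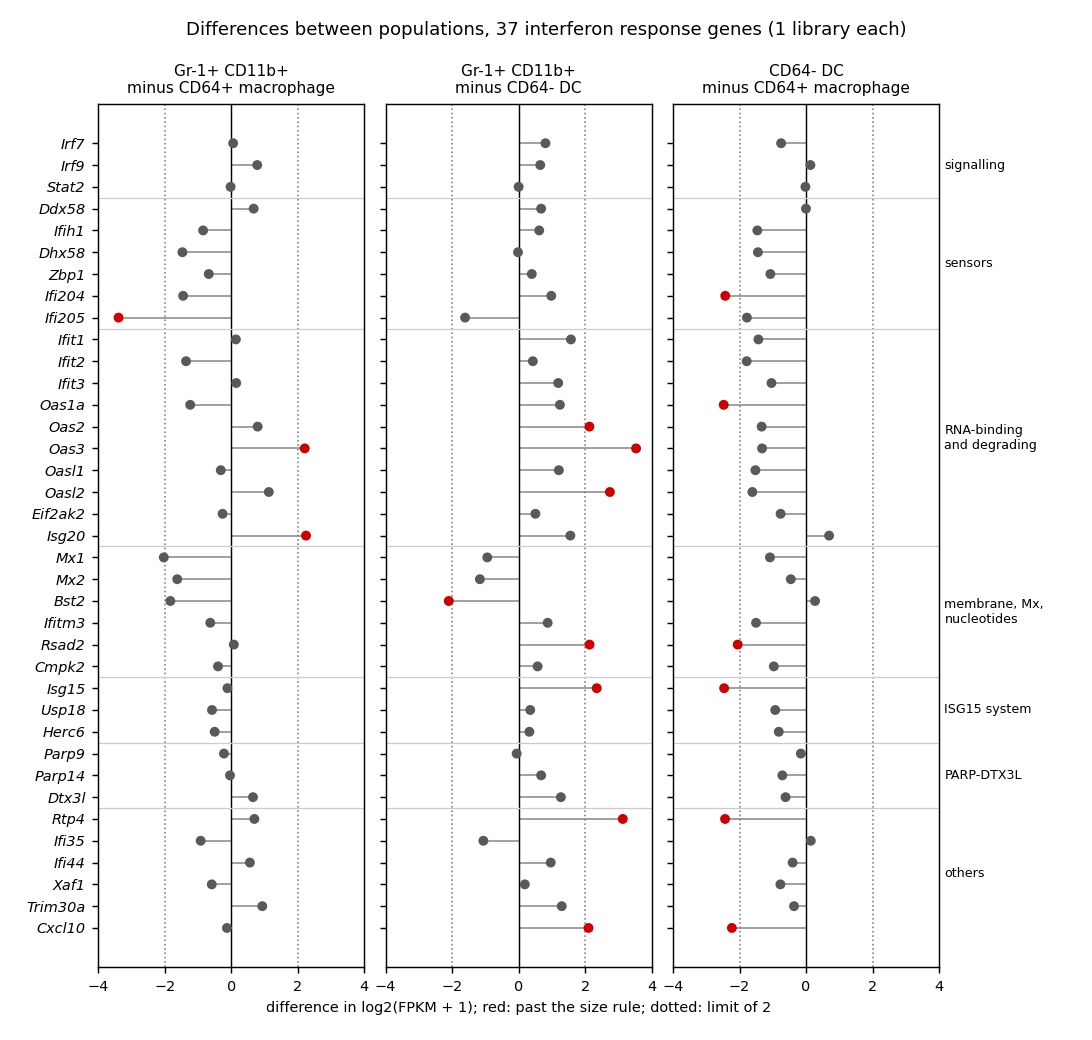
Difference in log2(FPKM + 1) of each member for Gr-1+ CD11b+ cells minus macrophages, Gr-1+ CD11b+ cells minus DC and DC minus macrophages, with the limit of 2 dotted and members past the size rule in red. Points in the left panel scatter around 0 with a median of -0.22, most in the middle panel lie to the right (median 0.67) and most in the right panel to the left (median -1.04).

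Promoters were examined because ISGF3 acts there. RefSeq (GRCm38.p6) gave 300-base windows, from 250 bases before to 50 after the start site, for 27 of the 37 members. A core of the response element, GAAA followed by any 2 bases and GAAA again, was searched on both strands. It occurred in the promoters of 15 of the 27 (55.6%), against 3.99% of all 27025 genes with a promoter entry. Some members had alternative windows, 32 in all, and in 29 the last bases lay in an annotated transcript of the gene. They did not for Stat2, whose only match is in that window, nor for an alternative window of Ifit2 and of Trim30a. Printed below are the promoters of Isg15, Oas1a, Rsad2 and Cxcl10, 4 of the 6 genes lower in DC than in macrophages (2 of them, Isg15 and Oas1a, with overlapping matches), that of Oas3, whose Gr-1+ CD11b+ to DC difference was the largest of the members, and that of Oasl2, a called gene with no match. The windows are chr4:156200769-156201068, chr5:120907476-120907775, chr12:26456403-26456702, chr5:92348840-92349139 and chr5:120777610-120777909, all on the minus strand, and chr5:114896684-114896983 on the plus strand. Each is written 5′ to 3′ on the strand of its gene, and capitals mark the matches.
Isg15: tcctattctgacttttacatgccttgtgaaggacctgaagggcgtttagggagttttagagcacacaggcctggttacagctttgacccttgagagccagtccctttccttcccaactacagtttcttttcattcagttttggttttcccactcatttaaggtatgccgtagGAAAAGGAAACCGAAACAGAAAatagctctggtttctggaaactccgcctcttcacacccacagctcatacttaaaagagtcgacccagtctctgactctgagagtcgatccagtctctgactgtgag
Oas1a: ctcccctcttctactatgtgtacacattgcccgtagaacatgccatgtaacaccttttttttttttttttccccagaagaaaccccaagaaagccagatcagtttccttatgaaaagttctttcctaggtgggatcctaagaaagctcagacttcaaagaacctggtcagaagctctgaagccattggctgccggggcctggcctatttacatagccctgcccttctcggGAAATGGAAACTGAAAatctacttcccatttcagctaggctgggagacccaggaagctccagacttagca
Rsad2: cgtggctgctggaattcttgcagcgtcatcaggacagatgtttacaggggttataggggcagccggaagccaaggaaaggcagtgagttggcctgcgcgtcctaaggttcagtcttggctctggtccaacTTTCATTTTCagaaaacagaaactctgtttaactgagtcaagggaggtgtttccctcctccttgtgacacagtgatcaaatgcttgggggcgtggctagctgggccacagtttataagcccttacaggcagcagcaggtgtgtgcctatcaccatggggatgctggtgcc
Cxcl10: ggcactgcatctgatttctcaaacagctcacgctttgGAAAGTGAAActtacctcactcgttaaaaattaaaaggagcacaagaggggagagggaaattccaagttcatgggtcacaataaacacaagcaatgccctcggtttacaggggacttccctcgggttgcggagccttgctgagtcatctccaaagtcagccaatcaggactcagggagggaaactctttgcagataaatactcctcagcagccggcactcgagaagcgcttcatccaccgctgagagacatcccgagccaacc
Oas3: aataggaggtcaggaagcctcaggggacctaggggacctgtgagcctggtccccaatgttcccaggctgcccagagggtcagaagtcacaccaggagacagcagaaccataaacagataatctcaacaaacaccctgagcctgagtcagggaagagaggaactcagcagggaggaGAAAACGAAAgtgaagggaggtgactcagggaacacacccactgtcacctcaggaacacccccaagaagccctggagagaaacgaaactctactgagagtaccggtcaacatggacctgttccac
Oasl2: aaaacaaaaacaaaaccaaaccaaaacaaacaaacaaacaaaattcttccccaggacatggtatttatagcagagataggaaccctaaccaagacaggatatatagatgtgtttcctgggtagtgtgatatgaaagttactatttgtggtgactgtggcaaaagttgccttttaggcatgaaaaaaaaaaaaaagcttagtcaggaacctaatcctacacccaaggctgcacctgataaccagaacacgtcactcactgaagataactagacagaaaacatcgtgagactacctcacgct

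In Isg15, 3 overlapping matches filled positions -78 to -57 from the start site, and in Oas1a 2 overlapping matches filled -20 to -5. Rsad2 had 1 match on the opposite strand at -120 to -111, Cxcl10 had 1 at -213 to -204 and Oas3 had 1 at -75 to -66. Among the 15 members with a match, 0 were higher and 4 lower in DC by the size rule, set against macrophages, with a median difference of -1.43. Among the 12 with a promoter entry and no match 0 were higher and 0 lower, with a median of -0.76. Counts this small are no result about the motif. Rtp4 and Ifi204, the other genes called lower in DC, are among the 10 members without a promoter entry and fell in neither group. For Gr-1+ CD11b+ cells minus DC the medians were 1.19 with a match and 0.73 without. These are descriptions with no test, and a missing match says only that these letters are not in this window.

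**Figure D4:**
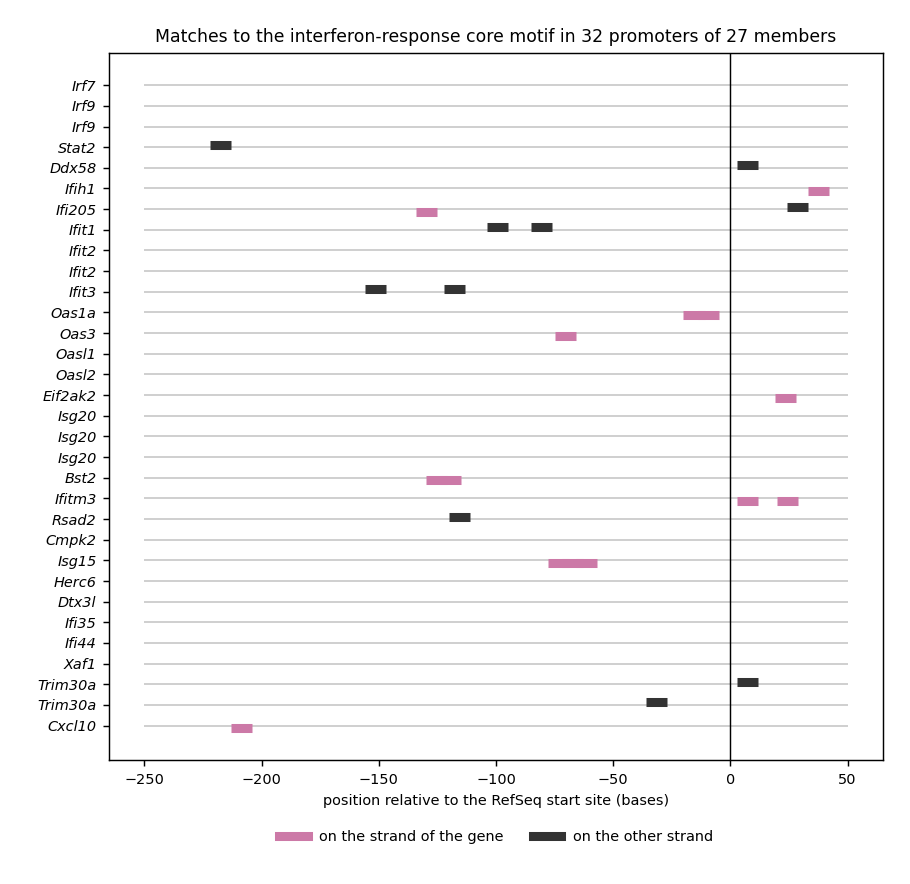
Positions of the motif (GAAA, any 2 bases, GAAA) on either strand in 32 promoter windows of 27 members, as distance in bases from the RefSeq start site at 0; rows with the same name are alternative start sites. Of the 27 genes, 15 have a match, most of them upstream of the start site, with the overlapping matches of Isg15, Oas1a and Bst2 drawn as longer bars.

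The signalling members differed little as deposited. Irf7, the transcription factor that drives interferon-alpha genes, was at 219.9 FPKM in the Gr-1+ CD11b+ sort, 125 in DC and 212 in macrophages. Irf9, the DNA-binding subunit of ISGF3, was at 74.4, 47.1 and 43.0 FPKM in that order. Stat2 was at 15.8, 15.9 and 16.1 FPKM and was the most even member of all as deposited. With median ratios all 3 genes were highest in the Gr-1+ CD11b+ sort and lowest in DC. None of the 3 passed the size rule in any comparison, and their differences lay between -0.75 and 0.80.

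Genes of nucleic acid sensors were highest in macrophages for 5 of 6 members, as deposited and under both scalings. Ifi205, of the interferon-inducible HIN-200 family, showed the widest gap, at 20.004 FPKM in the Gr-1+ CD11b+ sort, 63.2 in DC and 219 in macrophages. Its difference of -3.39 between Gr-1+ CD11b+ cells and macrophages passed the size rule. Ifi204, a DNA-sensing protein of the same family, was at 27.3 FPKM in the Gr-1+ CD11b+ sort, 13.3 in DC and 76.2 in macrophages, with a difference of -2.43 between DC and macrophages. Related copies of both genes lie in 1 cluster, so fragments may be split among them. Zbp1, a sensor of Z-form nucleic acids that can start necroptosis, was the most abundant sensor, at 149.6 FPKM in the Gr-1+ CD11b+ sort, 114 in DC and 240.1 in macrophages.

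The cytosolic RNA sensors were at 2.80 to 40.02 FPKM. Ddx58, which encodes RIG-I, was the exception among the sensors, with its highest value in the Gr-1+ CD11b+ sort at 15.5 FPKM, and it was at 9.34 in DC and 9.36 in macrophages. Ifih1, which encodes the long-RNA sensor MDA5, was at 4.83, 2.80 and 9.50 FPKM in the order Gr-1+ CD11b+ cells, DC and macrophages, and the first value lay below the silent-gene level. Dhx58, which encodes their regulator LGP2, was at 13.8, 14.03 and 40.02 FPKM in that order. Neither Ifih1 nor Dhx58 nor Ddx58 passed the size rule.

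Among the 10 genes whose products bind or degrade viral RNA or halt translation, 9 were lowest in DC, as deposited and under both scalings. The oligoadenylate synthetases, which make the small messenger that activates RNase L, split between the other populations. Oas3 was at 45.2 FPKM in the Gr-1+ CD11b+ sort, 3.01 in DC and 9.02 in macrophages, 15.0 times the DC value and 5.01 times the macrophage value. The differences of Oas3, 3.53 from DC and 2.21 from macrophages, both passed the size rule. Oas2, its neighbour on chromosome 5, was at 22.3, 4.34 and 12.5 FPKM in the order Gr-1+ CD11b+ cells, DC and macrophages, with a difference of 2.13 from DC. Oas1a was instead highest in macrophages, at 34.6 FPKM in the Gr-1+ CD11b+ sort, 14.1 in DC and 82.9 in macrophages, and its difference of -2.48 between DC and macrophages was the largest of that comparison, just past that of Isg15. The close copy Oas1g was at 2.55, 0.831 and 12.5 FPKM in that order, and fragments may be shared between the copies.

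The related Oasl genes also parted. Oasl2 was at 141 FPKM in the Gr-1+ CD11b+ sort, 20.2 in DC and 63.9 in macrophages, a difference of 2.74 between the first 2 libraries. Oasl1, whose mouse product represses translation of Irf7, was at 32.2, 13.4 and 40.3 FPKM in that order and passed the rule nowhere. Isg20, an RNA exonuclease, was the only one of these 10 genes lowest in macrophages, at 272 FPKM in the Gr-1+ CD11b+ sort, 91.96 in DC and 56.5 in macrophages, and its difference of 2.25 between Gr-1+ CD11b+ cells and macrophages passed the rule.

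The Ifit proteins bind foreign RNA ends and block its translation. Ifit1 was at 29.8 FPKM in the Gr-1+ CD11b+ sort, 9.36 in DC and 26.97 in macrophages, and Ifit3 at 20.5, 8.46 and 18.4 in the same order. Both had nearly equal values in the Gr-1+ CD11b+ sort and macrophages and lower ones in DC. Ifit2, the next gene on chromosome 19, was at 8.65 FPKM in the Gr-1+ CD11b+ sort, below the silent-gene level, at 6.19 in DC and at 23.8 in macrophages. Eif2ak2, which encodes the kinase PKR that halts translation, was at 7.47, 4.98 and 9.17 FPKM in that order, the first also below that level. As deposited, none of the Ifit genes nor Eif2ak2 passed the size rule. With median ratios Ifit1 passed for Gr-1+ CD11b+ cells minus DC. The Ifit3 copy Ifit3b was at 11.8, 1.90 and 2.43 FPKM, so the Gr-1+ CD11b+ value of Ifit3 may be split with it.

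Members that act at membranes or on nucleotides covered the widest range of levels. Ifitm3, which restricts virus entry at endosomes, was the most abundant member, at 2912 FPKM in the Gr-1+ CD11b+ sort, 1592 in DC and 4516 in macrophages, with no difference past the size rule. Bst2, the virion tether tetherin and a surface marker of mouse plasmacytoid DC and plasma cells, was at 54.3, 236 and 196 FPKM in the order Gr-1+ CD11b+ cells, DC and macrophages. Its difference of -2.10 between Gr-1+ CD11b+ cells and DC passed the rule, though with median ratios it did not. As deposited, 5 of 5 plasmacytoid DC markers had their highest value in the DC library, and none was at 0. With median ratios 3 of them were highest there and 2 in the Gr-1+ CD11b+ sort. The DC library also had the highest B and plasma cell sum. The part of such cells in the Bst2 value was not tested.

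Rsad2 encodes viperin, which makes a chain-terminating nucleotide, and was at 33.8 FPKM in the Gr-1+ CD11b+ sort, 6.94 in DC and 32.01 in macrophages. It was called in both comparisons with DC, with a difference of 2.13 for Gr-1+ CD11b+ cells minus DC and -2.06 for DC minus macrophages. Cmpk2, a nucleotide kinase gene that lies head to head with Rsad2 on chromosome 12, 12751 bases away, was at 6.36, 3.96 and 8.71 FPKM in the order Gr-1+ CD11b+ cells, DC and macrophages, a narrower spread, with the first value below the silent-gene level. The Mx genes encode antiviral GTPases, and BALB/c mice, like most inbred strains, are known to carry a defective Mx1 allele. Mx1 was at 1.27 FPKM in the Gr-1+ CD11b+ sort, 3.37 in DC and 8.27 in macrophages, and Mx2 at 0.179, 1.65 and 2.64. By the estimated depth, the Gr-1+ CD11b+ values stand for about 10.1 fragments of Mx1 and 1.0 fragment of Mx2, both below the silent-gene level. The Mx2 value in macrophages also lay below it.

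In the ISG15 system all 3 members were highest in macrophages and lowest in DC as deposited. With median ratios 2 of them, Isg15 and Herc6, were highest in the Gr-1+ CD11b+ sort, and with equal sums Herc6 was lowest there. Isg15, a ubiquitin-like protein that is joined to other proteins and also secreted, was at 337 FPKM in the Gr-1+ CD11b+ sort, 65.5 in DC and 366 in macrophages. The values of Gr-1+ CD11b+ cells and macrophages were close, and DC stood apart, by 2.35 for Gr-1+ CD11b+ cells minus DC and -2.46 for DC minus macrophages. Usp18, which removes ISG15 and restrains the interferon receptor, was at 14.9, 11.5 and 22.8 FPKM in the order Gr-1+ CD11b+ cells, DC and macrophages. Herc6, the ligase that attaches ISG15 in mice, was at 7.47, 5.78 and 11.0 FPKM, the first below the silent-gene level. As deposited, Usp18 and Herc6 followed the order of Isg15 with smaller differences, from -0.93 to 0.35.

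Of the ADP-ribosylation genes, Parp9 was even as deposited, while Dtx3l and Parp14 were lowest in DC. With median ratios all 3 were highest in the Gr-1+ CD11b+ sort and lowest in DC. Parp9 and Dtx3l encode partners in 1 complex and are read in opposite directions from overlapping starts on chromosome 16. Parp9 was at 17.1 FPKM in the Gr-1+ CD11b+ sort, 17.8 in DC and 20.04 in macrophages, and Dtx3l at 23.4, 9.13 and 14.5. No source used here states that strand was kept, so fragments of their overlap cannot be assigned. Parp14, a mono-ADP-ribosyltransferase gene of the same region, was at 11.5, 6.85 and 11.9 FPKM in that order. None of the 3 passed the size rule.

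Of the remaining members, Cxcl10 and Rtp4 showed the widest gaps. Cxcl10, a chemokine that draws T and NK cells through Cxcr3, was at 1106 FPKM in the Gr-1+ CD11b+ sort, 258 in DC and 1213 in macrophages. Its differences were 2.10 for Gr-1+ CD11b+ cells minus DC and -2.23 for DC minus macrophages. Rtp4, a chaperone of G protein-coupled receptors, was at 164 FPKM in the Gr-1+ CD11b+ sort, 17.9 in DC and 101 in macrophages, 9.18 times the DC value in the first library. The differences of Rtp4, 3.13 and -2.44 in the same comparisons, passed the rule under both scalings.

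Trim30a, a brake on Toll-like receptor signalling in mice, was at 50.1 FPKM in the Gr-1+ CD11b+ sort, 19.8 in DC and 25.8 in macrophages. Its copy Trim30b was at 38.8, 2.24 and 3.47 FPKM, so shared fragments may add to the first value. Ifi35, a partner of Nmi, was among the few members lowest in the Gr-1+ CD11b+ sort, at 44.7 FPKM against 94.5 in DC and 85.5 in macrophages. Xaf1, an antagonist of the apoptosis inhibitor XIAP, was at 16.2, 14.1 and 24.8 FPKM in the order Gr-1+ CD11b+ cells, DC and macrophages. Ifi44 was the lowest member in DC and macrophages, at 2.78, 0.940 and 1.57 FPKM in that order, above the silent-gene level in DC alone. As deposited, none of these 4 passed the size rule. With median ratios Trim30a passed for Gr-1+ CD11b+ cells minus DC.

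Both receptor chains and Jak1 exceeded the silent-gene level in every library. Of the 4 receptor chain and kinase genes, 0 passed the size rule in any comparison. Ifnar1 was at 32.6 FPKM in the Gr-1+ CD11b+ sort, 25.98 in DC and 40.5 in macrophages, and Ifnar2 at 137, 98.9 and 225. Jak1 was at 70.8, 89.4 and 57.7 FPKM in that order. Tyk2 was at 4.81 FPKM in the Gr-1+ CD11b+ sort, below the silent-gene level, and at 20.8 in DC and 17.2 in macrophages. As deposited both receptor chains were lowest in DC, but with equal sums Ifnar1 was lowest in the Gr-1+ CD11b+ sort, leaving 1 of the 4 genes lowest in DC.

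Transcripts of the interferons themselves were scarce. Of 18 type I interferon genes, 2 exceeded the silent-gene level in the Gr-1+ CD11b+ sort, 1 in DC and 3 in macrophages. Ifnb1, interferon-beta, was at 7.80 FPKM in the Gr-1+ CD11b+ sort, below that level, at 0.198 in DC and at 10.2 in macrophages, and its difference of -3.23 between DC and macrophages passed the size rule. Ifna4 was at 10.1, 0.256 and 2.71 FPKM in the order Gr-1+ CD11b+ cells, DC and macrophages. Ifna7 was at 10.9 FPKM in the Gr-1+ CD11b+ sort and 1.61 in macrophages and was listed at 0 in DC, as was Ifna15, at 8.79 and 3.66 in the same 2 libraries. Of the 11 interferon genes that reached 1 FPKM in some library, the size rule was passed by Ifna4 and Ifna7 towards the Gr-1+ CD11b+ sort over DC, by Ifna7 towards it over macrophages, and by Ifnb1, which was lower in DC than in macrophages. Of all genes compared, 3.65%, 1.41% and 2.31% passed in these directions, in the same order. The interferon-alpha genes are near-identical, short and without introns, so fragments cannot be assigned to any of them with confidence. Values near the silent-gene level are not read as expression.

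Of 16 genes that induce interferon, 1 had its highest value in the Gr-1+ CD11b+ sort, 7 in DC and 8 in macrophages. The shares in that order were 43.7%, 36.9% and 19.4% of all 17329 genes compared. They were 19.9%, 49.99% and 30.1% of all genes that reached 10 FPKM. That subset leaves out some of the 16, such as Tlr3 and Tlr9. The 7 became 9 with equal sums and 3 with median ratios. The size rule was applied to these 16 sensors, adaptors and factors, with the share of all genes compared in brackets. For the Gr-1+ CD11b+ sort against DC, 1 was higher (3.65%) and 1 lower (6.28%). For the Gr-1+ CD11b+ sort against macrophages, 0 were higher (1.41%) and 4 lower (3.41%). For DC against macrophages, 0 were higher (1.53%) and 1 lower (2.31%). Counts of 1 are no result about the list. Myd88, the adaptor of most Toll-like receptors, was at 409 FPKM in the Gr-1+ CD11b+ sort, 92.7 in DC and 263 in macrophages. Tmem173, which encodes the DNA-pathway adaptor STING, was at 19.6, 62.9 and 110.1 FPKM in that order. Irf8, a factor of DC and monocyte development, was at 27.6, 189.6 and 145 FPKM, and Irf5, a factor of inflammatory cytokine genes, at 74.0, 139 and 235. Ikbke, a kinase that activates Irf3 and Irf7, was at 9.23, 6.01 and 40.7 FPKM. Tlr7, a receptor for single-stranded RNA and named because it was the other gene called for the Gr-1+ CD11b+ sort against macrophages, was at 1.87, 3.58 and 10.9 FPKM. Irf8 is also used by B cells, whose markers were highest in DC, and their part was not tested.

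Among 12 genes that restrain the response or belong to its ISG15 and nucleic acid control, the size rule was passed by Socs3 alone. Socs3 was higher in the Gr-1+ CD11b+ sort than in DC (3.65% of all genes) and passed in no other comparison. A single gene is no result about the list. Socs3, an inhibitor of JAK signalling, was at 464 FPKM in the Gr-1+ CD11b+ sort, 90.2 in DC and 328 in macrophages. Samhd1, which depletes nucleotides, was at 417, 127 and 318 FPKM in that order. Trex1, which degrades cytosolic DNA, was at 424, 256 and 662 FPKM. All 3 had their lowest value in DC, but over the 12 genes 6 were lowest in DC and 6 in the Gr-1+ CD11b+ sort, the second 6 being Ptpn2, Ptpn6, Ptpn11, Pias1, Uba7 and Adar, and 5 of the 12 were highest in DC.

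**Figure D5:**
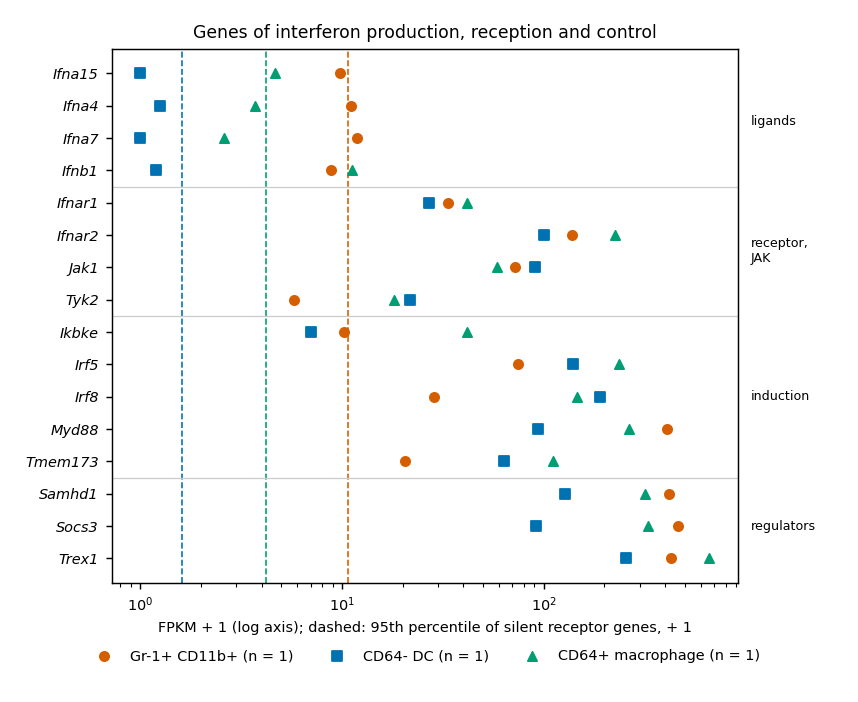
FPKM + 1 (log axis) of ligand, receptor, induction and regulator genes picked by their level or size of difference. The Gr-1+ CD11b+, DC and macrophage libraries are shown, 1 library each. Dashed lines mark the silent-gene level of each library plus 1. Tlr7, Ptpn2, Ptpn6, Ptpn11, Pias1, Uba7 and Adar are named in the text but not drawn. The 4 ligand genes reach at most 10.9 FPKM and lie near or below the line of their library, except Ifnb1 in macrophages, at 10.2 FPKM against a line at 3.23, while Ifnar1, Ifnar2 and Jak1 lie above all lines in every library.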

How the data were processed

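Each library has 1 deposited table of FPKM values by gene symbol. Per the labels' protocols, RNeasy RNA was turned into cDNA by SMART-Seq HT and into libraries by Nextera. The submitters' processing notes name mm10 as the build and, without saying what each did, Cufflinks 2.2.1, TopHat2 2.0.13, SAMtools 0.1.19 and Bowtie2 2.2.3; the annotation and filters are not given in the sources used here. No rescaling was done. Differences are of log2(FPKM + 1), over the 17329 genes that reached 1 FPKM in some library. Depth was taken from the steps of FPKM times transcript length less 200 bases, over genes with 1 transcript above 800 bases; 85.8%, 86.3% and 85.4% of low values lay within 0.2 of a whole multiple in the Gr-1+ CD11b+ sort, DC and macrophages. Fragment numbers are estimates that cover counting error only, as amplified fragments are not independent molecules. GENCODE M21 (GRCm38) gave lengths and coordinates, and all 37 members matched. The members and lists were chosen with earlier results of these data known. All 37 members are named, and from each other list the 3 genes with the highest FPKM, the 3 with the largest difference, the receptor chains and kinases, and copies of members; marker lists are given as sums. A further pathway gene is not reported here. Python 3.11.15, NumPy 2.4.6, pandas 2.3.3 and matplotlib 3.10.9 were used.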

Additional observations from a re-analysis of the deposited data

How the results depend on the processing

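With 1 library per population no value has a replicate check, and depth was lowest in the Gr-1+ CD11b+ library, where 8 members lay below the silent-gene level. No paired analysis was possible because each group has 1 library and no replicate number. Relative to values as deposited, equal sums moved the median of all genes by -0.28 for Gr-1+ CD11b+ cells minus DC and by 0.25 for DC minus macrophages. Median ratios moved it by 0.43 for Gr-1+ CD11b+ cells minus macrophages, 0.62 for Gr-1+ CD11b+ cells minus DC and -0.12 for DC minus macrophages, and subtracting the silent-gene median by -0.36, -0.56 and 0.21. For Gr-1+ CD11b+ cells minus macrophages, the median member difference reversed to 0.33 with median ratios. A pseudocount of 10 left 1 member higher (0.635% of all genes), and 2 were lower with no floor beyond 1 FPKM (3.80%). With a log2 limit of 1, 6 were lower, but so were 15.1% of all genes, and this count is no result about the members as a group. For Gr-1+ CD11b+ cells minus DC, the median was 0.40 with a pseudocount of 10, 0.34 with equal sums and 1.41 with median ratios. Here 3 members were higher with equal sums (2.84% of all genes) and 14 with a limit of 1 (6.03%). Lower were 0 with a pseudocount of 10 (1.78%) or median ratios (2.04%), and 3 with a limit of 1 (18.6%). For DC minus macrophages, the median was -0.61 with a pseudocount of 10 and -0.68 with equal sums. In this comparison 2 members were lower with a pseudocount of 10 (1.07% of all genes) and 16 with a limit of 1 (5.69%). Over all genes, the calls for DC minus macrophages were 266 higher and 401 lower, and 416 and 264 with equal sums; for Gr-1+ CD11b+ cells minus macrophages they were 244 and 591, and 618 and 251 with median ratios; for Gr-1+ CD11b+ cells minus DC they were 633 and 1088, and 1126 and 353. A larger pseudocount or a lower limit changes counts by construction; the cause of the other shifts was not tested. A pseudocount of 0.1 changed no call of a member, nor did subtracting the silent-gene median, and no called member changed direction under the 8 alternatives.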

Other observations

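Genes of the interferon-gamma pathway, which overlaps the type I response, were also read. Of 11 such genes, the size rule was passed by Nos2 (higher) and Ciita (lower) for the Gr-1+ CD11b+ sort against DC, by Ciita (lower) for the Gr-1+ CD11b+ sort against macrophages, and by Ifng (higher), Nos2 and Cxcl9 (both lower) for DC against macrophages. Of all genes compared, 3.65% were higher and 6.28% lower in the first of these comparisons. The shares were 1.41% and 3.41% in the second, and 1.53% and 2.31% in the third. Counts this small are no result about the list. Irf1, a factor induced by interferon-gamma, was at 783 FPKM in the Gr-1+ CD11b+ sort, 288 in DC and 545 in macrophages. The receptor genes Ifngr1 and Ifngr2 were at 229.99 and 84.5 FPKM in the Gr-1+ CD11b+ sort, 212 and 71.4 in DC, and 371 and 141 in macrophages. Ciita, the activator of MHC class II genes, was at 3.87, 66.4 and 28.8 FPKM in the order Gr-1+ CD11b+ cells, DC and macrophages, and the first value lay below the silent-gene level. Nos2, the inducible nitric oxide synthase gene, was at 19.3, 1.87 and 12.5 FPKM in that order. Ido1, a tryptophan-degrading enzyme gene, was at 1.22, 4.47 and 0.225 FPKM, above the silent-gene level in DC alone. Ifng, the cytokine gene of T and NK cells, was at 2.38, 12.4 and 2.05 FPKM, and Cxcl9, a chemokine gene, at 15.1, 12.8 and 58.98. Both were named because they passed the rule. The T and NK cell markers were also highest in DC, 3 of 3 of them, and their part was not tested.

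Among 45 further interferon-stimulated genes, the size rule called 5 higher (3.65% of all genes) and 3 lower (6.28%) for the Gr-1+ CD11b+ sort against DC. The 5 were Ifitm1, Ifitm2, Parp10, Slfn1 and Gbp5, and the 3 were Pml, Phf11b and Ifi30. For the Gr-1+ CD11b+ sort against macrophages the rule called Ifitm1 higher (1.41% of all genes) and 5 lower (3.41%). These 5 were Lgals3bp, Phf11b, Fcgr1, Ms4a4c and Ifi30. For DC against macrophages the rule called Pml higher (1.53% of all genes) and 6 lower (2.31%). The 6 were Slfn1, Slfn2, Fcgr1, Gbp2, Gbp5 and Gbp7. Of these, Gbp2, a guanylate-binding protein gene of defence against intracellular microbes, was at 388, 111 and 482 FPKM, in the order Gr-1+ CD11b+ cells, DC and macrophages. Over all 45, the median difference for the Gr-1+ CD11b+ sort minus DC was -0.003, with 22 genes higher and 23 lower. For DC minus macrophages it was -0.83, with 11 higher and 34 lower. The lowest value lay in the Gr-1+ CD11b+ sort for 21 genes, in DC for 20 and in macrophages for 4. The count lowest in DC was 16 with equal sums and 31 with median ratios. As deposited, this list thus did not share the position of DC as lowest for most members. Genes listed here beyond those of the naming rule were named after their values were seen. The relatives of Ifitm3 differed from it in order. Ifitm1 was at 7096 FPKM in the Gr-1+ CD11b+ sort, 872 in DC and 924 in macrophages, Ifitm2 at 10248, 1746 and 4413, and Ifitm6 at 826, 116 and 194 in the same order. Ifitm3 itself had its highest value in macrophages. These genes are similar in sequence, so the assignment of fragments among them is uncertain. Of 20 copies and relatives of members compared, 5 were higher and 2 lower for the Gr-1+ CD11b+ sort against DC, 3 and 3 against macrophages, and 0 and 1 for DC against macrophages; the lower ones were Mndal and Pyhin1 of the HIN-200 family in the first 2 comparisons, with Mnda in the second, and Oas1g in the third. The shares of all genes for these comparisons are those given with the 45 genes above. Slfn1, a gene of the Schlafen family, was at 75.8, 3.08 and 19.4 FPKM in the order Gr-1+ CD11b+ cells, DC and macrophages. Pml, which forms nuclear bodies, was at 3.01, 37.8 and 6.34 FPKM, and Ly6e, a membrane protein gene, at 389, 1463 and 1154.5. Fcgr1, the gene of the sorted marker CD64 and itself interferon-stimulated, was at 12.3, 9.23 and 113 FPKM. The sort on CD64 chose macrophages by its product, so its value is no finding.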
